A study of Mus musculus with 18 samples.

Results

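Mitochondrial fatty acid beta-oxidation and the citrate cycle were followed enzyme by enzyme through 35 mouse genes, 18 of the carnitine shuttle, beta-oxidation and its electron transfer and 17 of the citrate cycle. A gene belonged to the set if a non-control probe of the array carried its name or an older synonym, and all 35 had one, among 27597 genes with a probe. All 35 passed the filter on dim probes, as did 19217 genes in all, and every probe used for them was well above background on every array where it was measured. The set was described over 18 single-dye arrays of 6 groups with 3 biological replicates each. The groups were adipocytes and stromal-vascular cells (SVF) of interscapular brown fat, of inguinal fat and of epididymal fat, all from young adult male C57BL/6 mice with no treatment given in the labels. Adipocytes were the cells that floated after collagenase digestion of the minced depot, and SVF the pelleted remainder after lysis of erythrocytes.

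Fatty acids enter the mitochondrion as acyl-carnitines. Cpt1 on the outer membrane forms the carnitine ester, the carrier Slc25a20 exchanges it across the inner membrane, and Cpt2 returns it to coenzyme A. Each turn of the beta-oxidation spiral then dehydrogenates, hydrates, dehydrogenates again and cleaves the acyl chain. Its electrons pass through the electron transfer flavoprotein (Etfa and Etfb) and its oxidoreductase Etfdh to ubiquinone, and its acetyl-CoA is burned in the citrate cycle. Brown adipocytes are rich in mitochondria and oxidise fatty acids to make heat through Ucp1, whereas white adipocytes mainly store and release them. Transcription of many of these genes is known to be driven by oestrogen-related receptors with the coactivators Ppargc1a and Ppargc1b, by Ppara, and by the nuclear respiratory factor Nrf1.

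Promoter windows of 300 bases, from 250 bases before to 50 bases after the annotated start, were found for 29 of the 35 genes in RefSeq (mouse build GRCm38.p6). Acaa2, Acat1, Cpt1b, Decr1, Idh3a and Sdhc were not matched. Each motif was searched on both strands, and the shorter ones lie within the longer ones. The hexamer AGGTCA, the core that nuclear receptors read, was in 10 of 29 member genes (34.5%), against 18.1% of the 27025 genes with a window. Its extension AAGGTCA was in 3 of 29 (10.3%), Acadm, Ogdh and Sdhd, against 5.38% of genes, and the longer TCAAGGTCA of oestrogen-related receptors was in Sdhd alone (3.45%), against 0.466% of genes. The GCGCATGC part of the Nrf1 site was in 5 of 29 (17.2%), Acadm, Etfa, Etfdh, Ogdh and Sdhb, against 3.05% of genes. The full palindromic Nrf1 site was in Etfdh alone, against 1.07% of genes. The ETS-type CCGGAAGT was in Cpt2, Dlst and Slc25a20 (10.3%), against 4.31% of genes, and AAGATGGCG, the YY1 site, was in Idh3g, against 1.64% of genes. A direct repeat of the AGGTCA hexamer with any 1 base between the copies was in 0 of 29 and in 0.0481% of genes. These shares are descriptions of the letters only.

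The stretches below show these letters for genes taken up later: Acadm, which holds both kinds, Etfdh with the full Nrf1 site, Ogdh, Sdhd with the longest receptor element, and Cpt1a, whose transcript ran opposite to the rest. Capitals mark the match, the receptor-type letters read from the other strand in Acadm, Ogdh, Sdhd and Cpt1a, and the Nrf1-type letters in Acadm and Etfdh. The Ogdh stretch is from 1 of its 6 annotated windows.
Acadm, chr3:153944784-153944893, minus strand, from -250 to -141: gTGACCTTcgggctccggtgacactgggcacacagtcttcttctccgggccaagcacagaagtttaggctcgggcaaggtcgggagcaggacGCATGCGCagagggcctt
Etfdh, chr3:79628828-79628927, minus strand, from -160 to -61: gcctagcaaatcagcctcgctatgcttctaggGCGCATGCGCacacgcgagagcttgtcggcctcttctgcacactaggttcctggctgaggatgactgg
Ogdh, chr11:6292080-6292179, plus strand, from -90 to 9: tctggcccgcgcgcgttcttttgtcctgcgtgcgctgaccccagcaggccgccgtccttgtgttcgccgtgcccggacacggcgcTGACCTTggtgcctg
Sdhd, chr9:50603800-50603829, minus strand, from 20 to 49: tttccgggttgtagagTGACCTTGAgccct
Cpt1a, chr19:3323201-3323300, plus strand, from -100 to -1: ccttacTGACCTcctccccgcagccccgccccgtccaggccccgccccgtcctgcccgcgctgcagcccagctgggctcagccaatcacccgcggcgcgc

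A level is the log2 processed signal minus that array's 75th percentile of spot signals, so that 0 is a bright spot in the upper part of the array and a difference of 1 is a doubling. The 75th percentile ran from 338 to 1257 signal units, and 49.6% to 72.3% of spots were well above background on 17 arrays and 87.9% on epididymal adipocyte replicate 1. The percentile was 338, 474 and 438 in brown adipocytes, with 49.6%, 56.9% and 58.5% of spots well above background. In brown SVF it was 797, 732 and 993, with 67.2%, 72.2% and 69.2%. It was 394, 1042 and 437 in inguinal adipocytes, and 777, 902 and 416 in epididymal ones. The part of signal strength in the differences was not tested. The 6 arrays of inguinal and epididymal adipocytes were read with an older version of the scanner software on scan days of their own, and the other 12 arrays with a newer version. The brown fraction comparison, the SVF comparisons and that of inguinal with epididymal adipocytes therefore lie within 1 software version. No slide and no scan day held both of the last pair, so between inguinal and epididymal adipocytes slide and scan day cannot be told apart from the group. In the inguinal and epididymal fraction comparisons, in the tests between depots that use them, and in the comparisons of brown with the other adipocytes, version and scan day cannot be told apart from the group. In bulk samples, fewer cells of a type and less RNA per cell cannot be told apart either. The summed linear level of 7 mature adipocyte markers was 778 to 1281 in brown, 701 to 1928 in inguinal and 1068 to 1308 in epididymal adipocytes. It was 67.1 to 570 in brown SVF, highest in replicate 2, 18.7 to 71.3 in inguinal SVF and 41.9 to 125 in epididymal SVF, so adipocyte transcripts were detected in all SVF arrays. The 6 brown adipocyte markers, Ucp1 among them, summed to 906 to 1670 in brown, 189 to 359 in inguinal and 10.2 to 144 in epididymal adipocytes, the last highest in replicate 3. They summed to 66.3 to 176 in brown SVF and to at most 4.45 in the SVF of the other depots. Inguinal SVF replicate 1 stood apart (mesothelial markers summed to 123, the lowest array of that group to 0.186). So did epididymal adipocyte replicate 3, in brown adipocyte markers (144, the lowest array 10.2) and muscle markers (19.4, the lowest array 9.45). Inguinal SVF replicate 2 stood apart in muscle markers (28.1, the lowest array 1.22), and without it Acaa2, Dlst and Hadha lost their call in the inguinal fraction comparison, which had 31 called enzymes, against 34 with it. Without inguinal SVF replicate 1 it was Fh1, Hadha, Idh3g, Suclg1 and Suclg2 that lost it.

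Brown adipocytes had the highest level of the 6 groups for 34 of the 35 enzymes. For 29 enzymes the highest group lay wholly above the next, and the groups overlapped for Acads, Cpt1a, Cpt2, Echs1, Etfb and Idh3g. Separation of groups was not counted over all genes, so no share stands beside it. Inguinal adipocytes were second for 31 enzymes. Epididymal adipocytes and brown SVF shared the middle: epididymal adipocytes were the third highest for 18 and the fourth for 15, brown SVF the third for 14 and the fourth for 20. Where they were neighbours, their arrays overlapped in 29 enzymes and were separate in 3. Inguinal SVF was lowest for 30 enzymes, and epididymal SVF for Cpt1b, Dlst, Mdh2 and Sdhd.

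**Figure D1:**
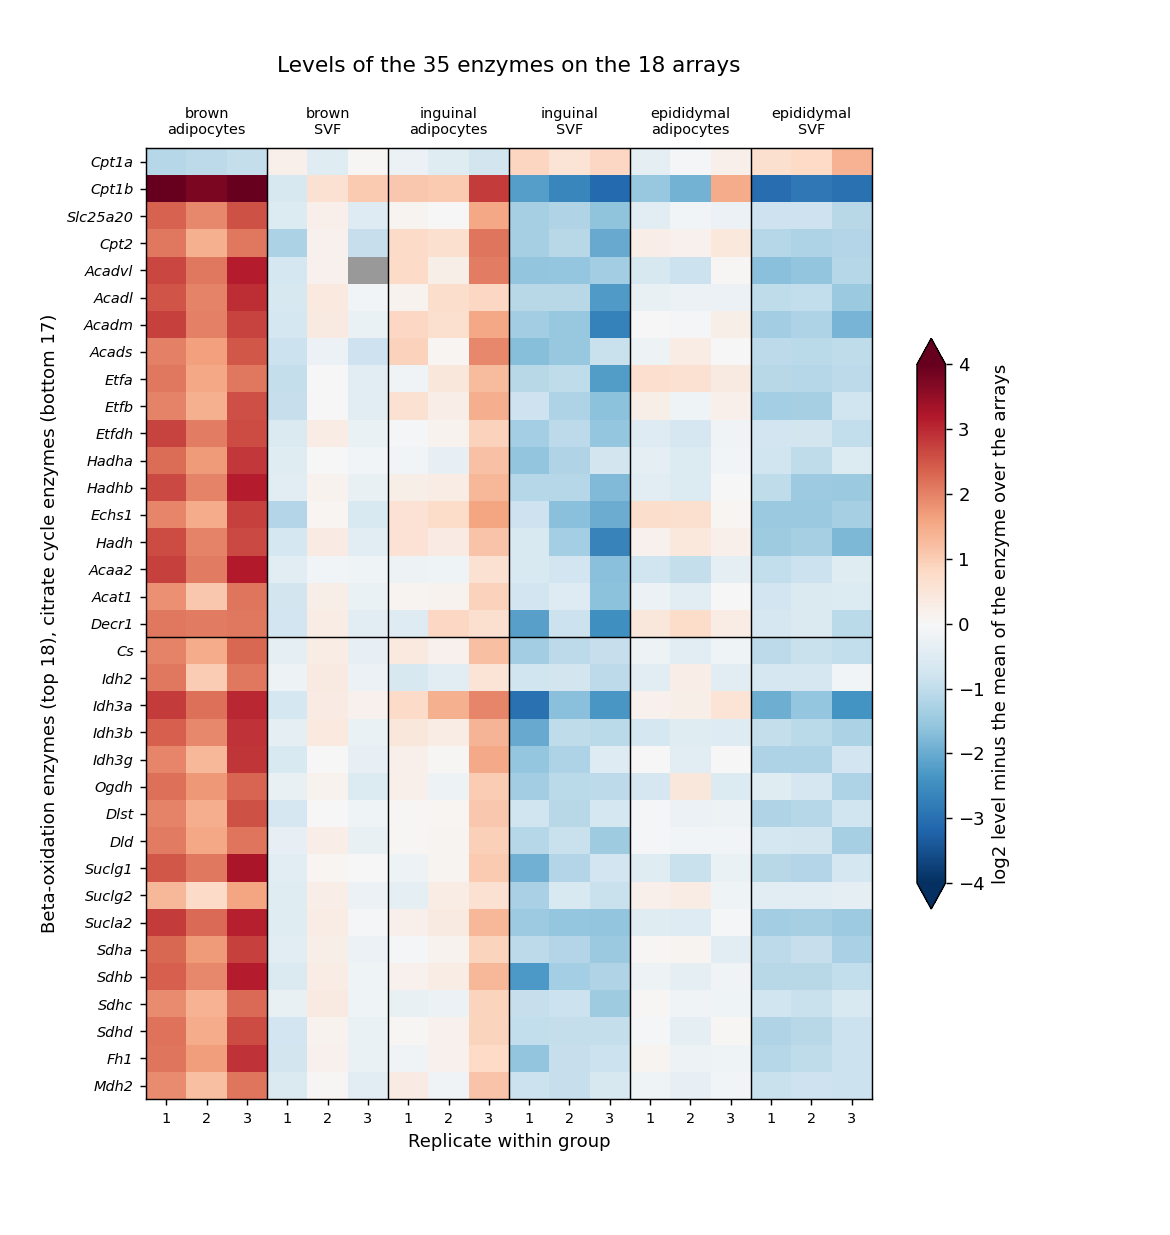
Level of each of the 35 enzymes (rows) in each of the 18 arrays, as log2 signal relative to the array's 75th percentile, drawn relative to the enzyme's mean over all arrays. The 3 brown adipocyte columns average highest in 34 rows and lowest for Cpt1a; the grey cell is the spot of Acadvl left out.

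In brown adipocytes, inguinal adipocytes and brown SVF the enzymes moved together from array to array. Brown adipocyte replicate 3 was the highest of its group for 33 of 35 enzymes and replicate 2 the lowest for 34. Inguinal adipocyte replicate 3 was the highest of its group for 33. Among brown SVF arrays, replicate 2, the array with the highest adipocyte marker sum, was the highest for 32 of the 34 enzymes measured on all 3. Elsewhere the highest array varied. Replicates 1, 2 and 3 were highest for 7, 10 and 18 enzymes in epididymal adipocytes. These counts were 10, 14 and 11 in inguinal SVF, and 6, 11 and 18 in epididymal SVF. Such counts were not made over all genes, so the shared movement may not be particular to the enzymes. Relative to each enzyme's mean over all arrays, the median enzyme stood at 2.17, 1.70 and 2.60 in the 3 brown adipocyte arrays, against -0.58, 0.21 and -0.26 in brown SVF. It stood at 0.13, 0.18 and 1.14 in inguinal adipocytes, against -1.32, -1.11 and -1.42 in inguinal SVF, and at -0.21, -0.19 and -0.11 in epididymal adipocytes, against -1.06, -1.07 and -1.02 in epididymal SVF. The groups of each pair did not overlap. The enzymes' SD over replicates had a median of 0.61 in inguinal adipocytes, 0.48 in brown and 0.23 in epididymal ones.

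Adipocytes were compared with the SVF of the same depot to ask how far these pathways follow the fat cell itself. In brown fat 34 enzymes were higher and Cpt1a was lower in adipocytes, each past an adjusted p of 0.05 (limma on all 19217 genes, Benjamini-Hochberg), where 21.1% of all genes passed, 12.7% as higher and 8.35% as lower. The median enzyme differed by 2.49 on the log2 scale and the median gene by 0.15. In inguinal fat 33 were higher and Cpt1a was lower, with 13.9% of genes called, 9.07% higher and 4.87% lower, and medians of 1.72 for the enzymes and 0.01 for all genes. Idh2 was not called there. In epididymal fat 13 were higher and Cpt1a was lower, with 25% of genes called, 18% higher and 7.05% lower, and medians of 0.90 and 0.06. At an unadjusted p under 0.05 the epididymal count was 24, and the arrays of 29 enzymes were all higher in epididymal adipocytes than in epididymal SVF. How many of all genes were separate in this way was not counted. Without inguinal adipocyte replicate 3 the inguinal count was 22. The epididymal count was 6 when replicate 1 of the adipocytes or replicate 2 of the SVF was left out. It was 7 when replicate 3 of the adipocytes or replicate 1 or 3 of the SVF was left out. That these enzymes are high in brown adipocytes was known when the set was chosen, so the counts are no independent evidence of it.

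**Figure D2:**
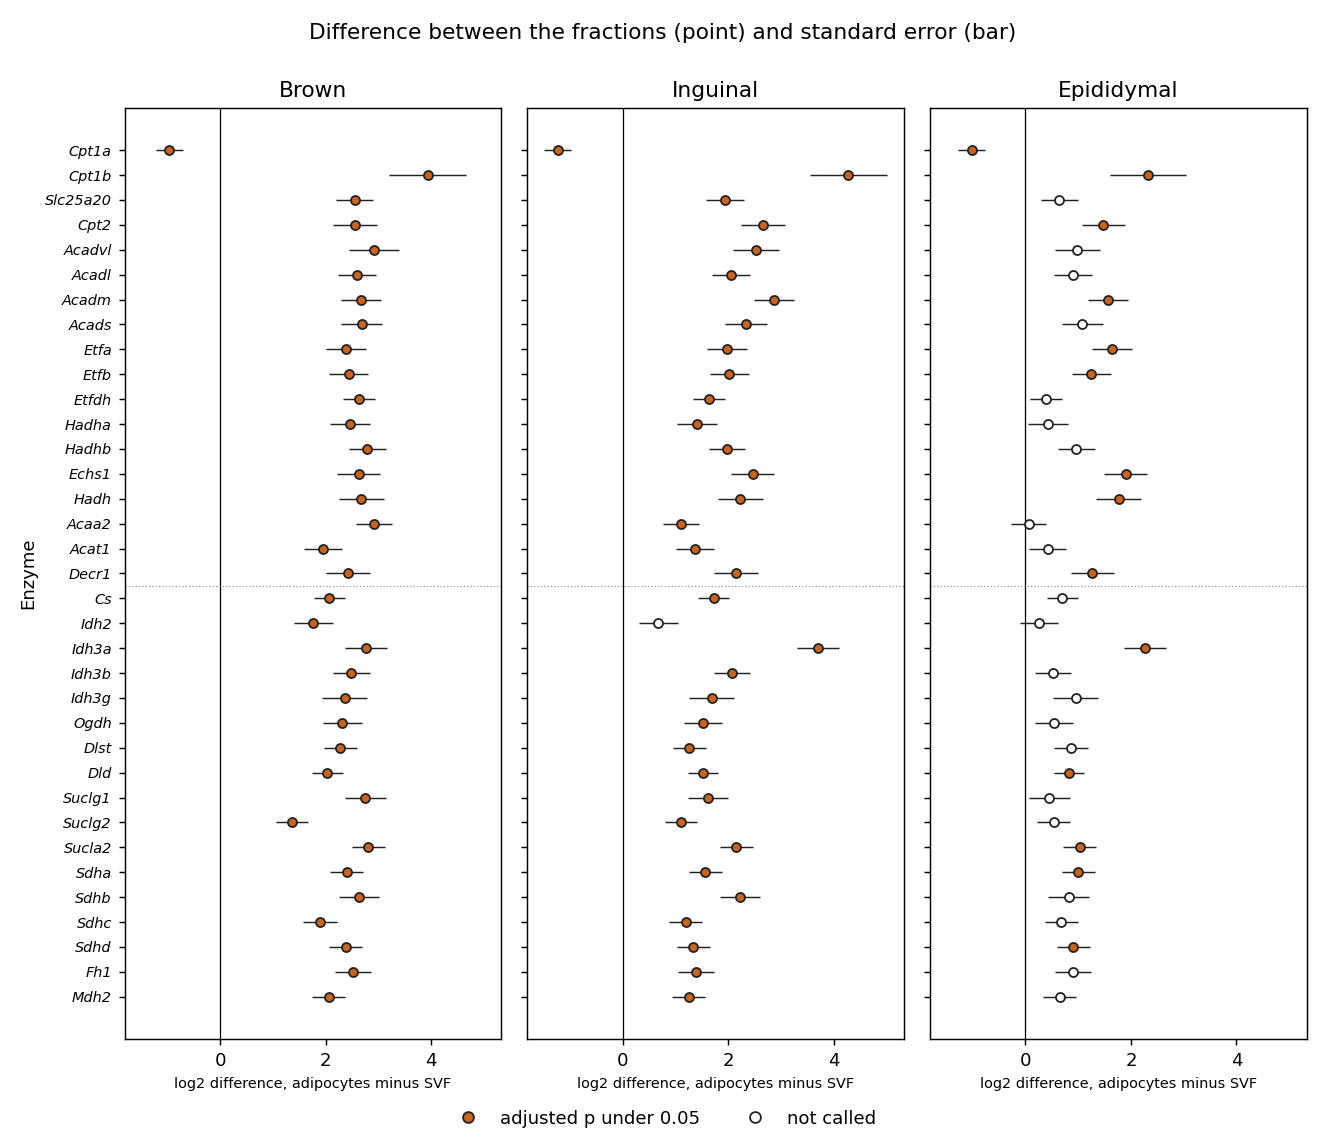
Adipocyte minus SVF log2 difference of each enzyme with its standard error, in brown, inguinal and epididymal fat; filled points passed an adjusted p of 0.05. The median enzyme shifts to the right by 2.49, 1.72 and 0.90, and Cpt1a alone lies left of 0 in all 3 depots.

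The 13 enzymes called higher in the adipocytes of all 3 depots were Acadm, Cpt1b, Cpt2, Decr1, Dld, Echs1, Etfa, Etfb, Hadh, Idh3a, Sdha, Sdhd and Sucla2. In epididymal fat Acadm, Echs1, Etfa, Hadh and Idh3a kept the call in each of 6 omissions of an array. Decr1 and Dld lost it in 6 of 6, Sdha, Sdhd and Sucla2 in 5, Cpt1b and Etfb in 4 and Cpt2 in 3. The signed difference was higher in brown than in inguinal fat for 31 enzymes, the exceptions being Acadm, Cpt1b, Cpt2 and Idh3a, and higher in inguinal than in epididymal fat for all but Cpt1a. For Cpt1a, which was negative in each depot, the drop was smaller in brown than in inguinal fat. Across the 35 enzymes, which are not independent replicates, the brown and inguinal differences, which share no array, correlated with a Pearson r of 0.83, or 0.61 without Cpt1a and Cpt1b. The correlation was 0.68 between brown and epididymal differences, or 0.34 without these 2 genes, and 0.89 between inguinal and epididymal ones, or 0.80 without them. The inguinal and epididymal comparisons both set adipocytes read with the older software version against SVF read with the newer. In their correlation, version and scan day cannot be told apart from what the depots share.

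The outer membrane step held both extremes of the set in all 3 depots, in epididymal fat by a small margin of Cpt1b (2.32) over Idh3a (2.27). Cpt1b, the muscle type of carnitine palmitoyltransferase 1, which is also the main form of brown fat, stood at 4.59, 3.95 and 4.84 in brown adipocytes, against -0.45, 0.80 and 1.23 in brown SVF. It stood at 1.26, 1.23 and 2.97 in inguinal adipocytes, against -2.02, -2.41 and -2.94 in inguinal SVF, and at -1.33, -1.70 and 1.68 in epididymal adipocytes, against -2.86, -2.67 and -2.79 in epididymal SVF. No adipocyte array overlapped with the SVF of its depot, and epididymal adipocyte replicate 3 stood well above its 2 group mates. The difference was 3.93 in brown (15.3-fold, SE 0.73, limma adjusted p = 0.00158), 4.28 in inguinal (19.4-fold, adjusted p = 0.00213) and 2.32 in epididymal fat (5.00-fold, adjusted p = 0.03). Without epididymal adipocyte replicate 3 the epididymal value was 1.26 (adjusted p = 0.129, limma). The epididymal call was also lost in 3 further omissions of an array, 4 of 6 in all. A second kept probe of Cpt1b differed by 3.96, 4.10 and 1.37 in brown, inguinal and epididymal fat, the last not called (adjusted p = 0.197 over probes). The summed level of 8 skeletal muscle markers, a tissue rich in Cpt1b, was 2.37 to 10.2 in brown adipocytes, against 4.63 to 11.1 in brown SVF, and 6.14 to 7.97 in inguinal adipocytes, against 1.22 to 28.1 in inguinal SVF. It was 9.45 to 19.4 in epididymal adipocytes, highest in replicate 3, against 0.793 to 0.909 in epididymal SVF. There Ckm, Myh4 and Pvalb were below background. The 6 brown adipocyte markers summed to 10.2, 13.5 and 144 in the epididymal adipocyte arrays, also highest in replicate 3. Their sum was 1.33 to 2.64 in epididymal SVF. The part of either marker list in the epididymal difference was not tested.

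Cpt1a, the liver type of the same enzyme, ran the other way. It stood at 0.81, 0.90 and 0.97 in brown adipocytes, against 2.13, 1.46 and 1.98 in brown SVF. It stood at 1.69, 1.46 and 1.21 in inguinal adipocytes, against 2.80, 2.48 and 2.77 in inguinal SVF, and at 1.56, 1.86 and 2.15 in epididymal adipocytes, against 2.57, 2.73 and 3.31 in epididymal SVF. The arrays of the 2 fractions were separate in each depot. The difference was -0.96 in brown (SE 0.26, adjusted p = 0.0145), -1.23 in inguinal (adjusted p = 0.00677) and -1.01 in epididymal fat (adjusted p = 0.0112, all by limma), that is 1.95, 2.34 and 2.02 times lower in adipocytes. The brown call was lost without brown SVF replicate 1 (-0.83, adjusted p = 0.0739), without brown SVF replicate 3 (-0.90, adjusted p = 0.0614) or without brown adipocyte replicate 1 (-0.92, adjusted p = 0.0552). The epididymal call was lost without epididymal SVF replicate 3 (-0.79, adjusted p = 0.0553) or epididymal adipocyte replicate 1 (-0.86, adjusted p = 0.0628). The direction was the same in each case. In order of level, epididymal SVF (2.87 ± 0.39) and inguinal SVF (2.68 ± 0.18) overlapped with each other and lay above the rest. Epididymal adipocytes (1.86 ± 0.30), brown SVF (1.86 ± 0.35) and inguinal adipocytes (1.45 ± 0.24) overlapped as neighbours, and brown adipocytes (0.89 ± 0.08, SD, n = 3 in each group) lay below all others. Of 5 macrophage markers 4, 0 and 1 were called lower in the adipocytes of brown, inguinal and epididymal fat than in their SVF, and of 5 progenitor and fibroblast markers 5, 4 and 3. Of 4 endothelial markers 0 were called in any depot. The sum of the macrophage markers was 0.759 to 2.77 in brown adipocytes, against 11.0 to 20.5 in brown SVF, and overlapped in inguinal fat, with 3.45 to 26.9 in adipocytes, against 14.8 to 57.6 in SVF. That of the progenitor and fibroblast markers was 19.0 to 41.0 in brown adipocytes, against 92.7 to 110 in brown SVF. Their part in the Cpt1a difference was not tested. A second kept probe of Cpt1a had differences of -0.65, -1.03 and -1.19 in brown, inguinal and epididymal fat. The first was not called (limma adjusted p = 0.192 over probes). This probe was highest in epididymal SVF. Its brown minus inguinal adipocyte difference was 0.04, so brown adipocytes were not its lowest group.

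**Figure D3:**
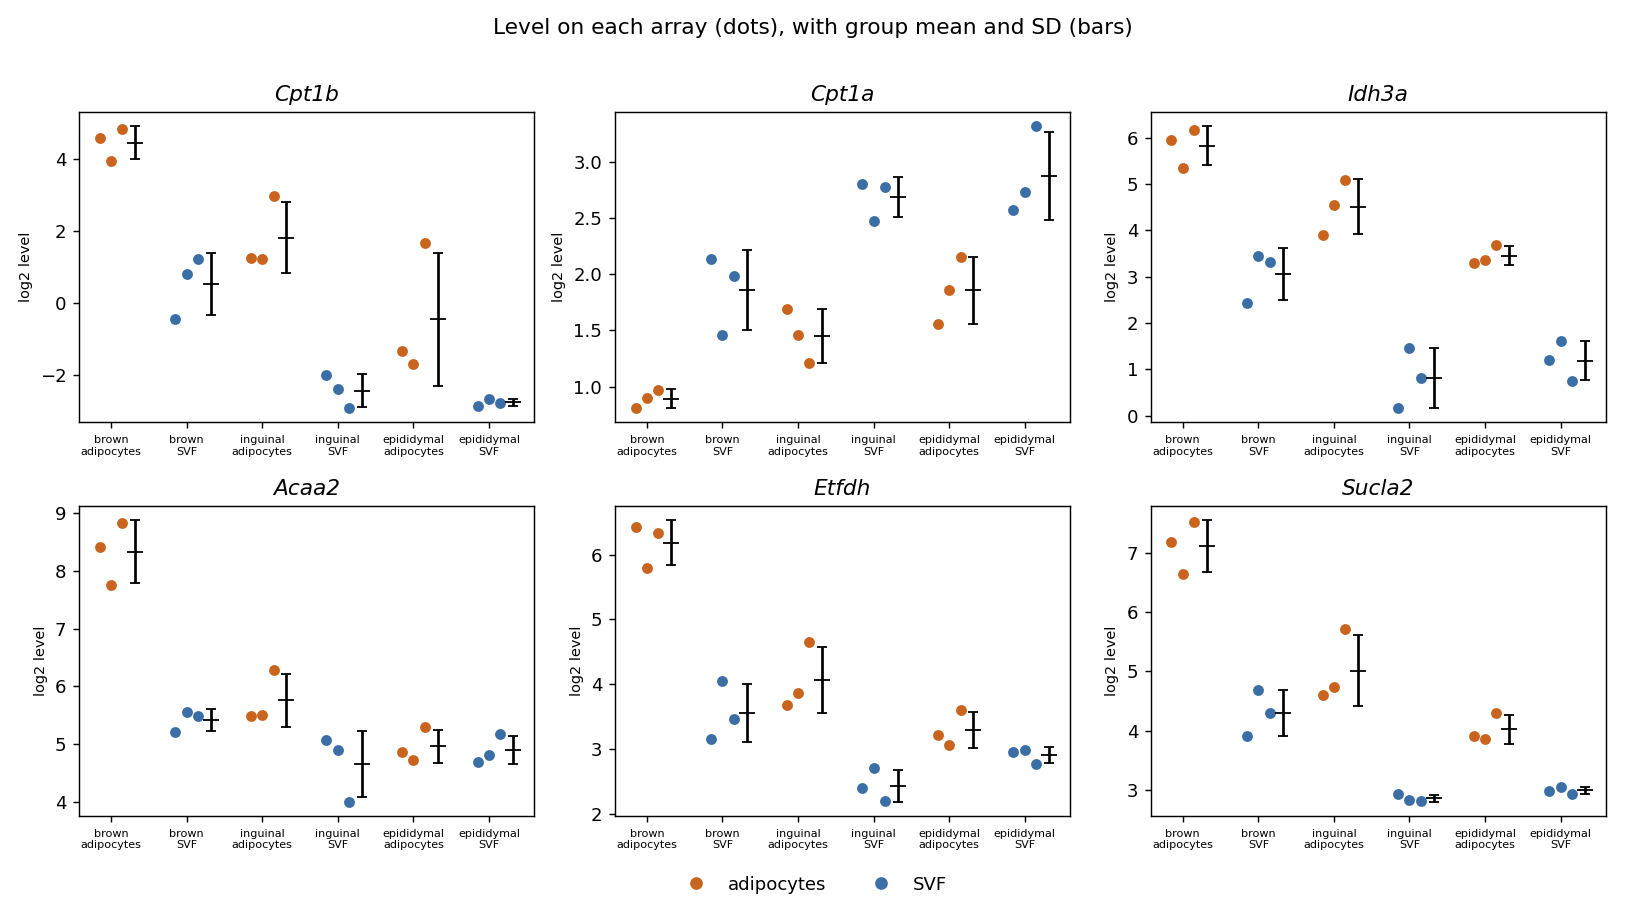
Levels of 6 enzymes (log2 signal relative to the array's 75th percentile) in each array as points, with the group mean and SD as bars, adipocytes left of SVF for brown, inguinal and epididymal fat. Cpt1b lies high and Cpt1a low in brown adipocytes, where Cpt1b averages 4.46 and Cpt1a 0.89.

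The log2 signal of Cpt1b over that of Cpt1a joins 2 probes, so its own size has no meaning and only its change between groups is read. It was 3.57 ± 0.45 in brown adipocytes, against -1.33 ± 1.09 in brown SVF (difference 4.90), 0.37 ± 1.21 in inguinal adipocytes, against -5.14 ± 0.49 in inguinal SVF (difference 5.50), and -2.31 ± 1.62 in epididymal adipocytes, against -5.65 ± 0.39 in epididymal SVF (difference 3.34, or 2.42 without epididymal adipocyte replicate 3). Each has an exact two-sided permutation p of 0.1, the smallest that 3 against 3 arrays allow. Brown adipocytes exceeded the 6 inguinal and epididymal adipocyte arrays, which had -0.97 ± 1.95, by 4.54 (exact permutation p = 0.0238, the smallest possible, or 0.0952 after Benjamini-Hochberg adjustment over 8 such tests).

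The other shuttle members, Slc25a20 and Cpt2, were higher in adipocytes. Slc25a20, the carnitine-acylcarnitine translocase, stood at 3.81, 3.35 and 3.99 in brown adipocytes, against 0.91, 1.66 and 0.94 in brown SVF (difference 2.55, SE 0.36, limma adjusted p = 0.000306), and differed by 1.93 in inguinal and 0.65 in epididymal fat, where it was not called. Cpt2, which reforms acyl-CoA in the matrix, differed by 2.55, 2.66 and 1.48 and was called in all 3 depots.

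The acyl-CoA dehydrogenases take acyl chains of falling length, Acadvl very long, Acadl long, Acadm medium and Acads short ones. All 4 were called higher in brown and inguinal adipocytes, and Acadm in epididymal ones, with medians of 2.68, 2.43 and 1.03. Acadm stood at 7.95, 7.26 and 7.94 in brown adipocytes, against 4.54, 5.60 and 4.97 in brown SVF, at 6.07, 5.86 and 6.78 in inguinal adipocytes, against 3.84, 3.72 and 2.53 in inguinal SVF, and at 5.26, 5.16 and 5.45 in epididymal adipocytes, against 3.83, 4.00 and 3.36 in epididymal SVF. All 3 pairs of groups were separate, by 2.68, 2.87 and 1.56 (6.40-, 7.30- and 2.95-fold). Acadvl stood at 8.40, 7.82 and 8.86 in brown adipocytes, against 5.00 and 5.89 in brown SVF, whose replicate 3 spot was flagged by the scanner software and left out, so that the difference of 2.91 (SE 0.48, limma adjusted p = 0.000899) rests on 2 SVF arrays. In epididymal fat its difference of 0.99 (SE 0.43) was not called (adjusted p = 0.107).

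Of the electron transfer proteins, Etfa and Etfb, the 2 subunits of the flavoprotein, were called in all 3 depots (2.39, 1.97 and 1.65 for Etfa, 2.44, 2.02 and 1.25 for Etfb, in brown, inguinal and epididymal fat). Etfdh, which hands their electrons to ubiquinone, was not. It stood at 6.43, 5.79 and 6.34 in brown adipocytes, against 3.16, 4.05 and 3.46 in brown SVF (6.19-fold, difference 2.63, SE 0.30, limma adjusted p = 0.000105), but at 3.22, 3.06 and 3.60 in epididymal adipocytes, against 2.96, 2.99 and 2.77 in epididymal SVF (1.31-fold, difference 0.39, adjusted p = 0.373). The epididymal arrays were separate all the same. In inguinal fat it differed by 1.63.

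The later steps of the spiral comprise the hydratase Echs1, the dehydrogenase Hadh, the trifunctional protein subunits Hadha and Hadhb for long chains, the thiolases Acaa2 and Acat1, and Decr1, which is needed for unsaturated chains. All 7 were called higher in brown and in inguinal adipocytes (medians 2.62 and 1.98), and Echs1, Hadh and Decr1 in epididymal ones (median 0.97). Acaa2, the last enzyme of the spiral, had a fraction difference that varied widely between depots. It stood at 8.41, 7.75 and 8.83 in brown adipocytes, against 5.21, 5.56 and 5.49 in brown SVF, at 5.48, 5.51 and 6.28 in inguinal adipocytes, against 5.07, 4.89 and 4.00 in inguinal SVF, and at 4.86, 4.73 and 5.29 in epididymal adipocytes, against 4.70, 4.82 and 5.18 in epididymal SVF. The epididymal groups overlapped, and the other pairs were separate. The differences were 2.91 (7.50-fold, SE 0.34, limma adjusted p = 0.000119), 1.10 (2.15-fold, adjusted p = 0.0427) and 0.06 (adjusted p = 0.916). The inguinal call of Acaa2 was lost in 4 of 6 omissions of an array, those of inguinal SVF replicates 2 and 3 and inguinal adipocyte replicates 1 and 3 (0.78 to 1.24). Echs1, in contrast, stood at 4.91, 4.82 and 4.27 in epididymal adipocytes, against 2.70, 2.72 and 2.87 in epididymal SVF, a separate and called difference of 1.90 (SE 0.41, adjusted p = 0.00493). Hadha and Hadhb, which work as 1 complex, differed by 2.45 and 2.79 in brown, 1.41 and 1.98 in inguinal, and 0.44 and 0.97 in epididymal fat, the last pair not called.

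All 17 citrate cycle members were called higher in brown adipocytes, 16 in inguinal and 5 in epididymal ones, with medians of 2.36, 1.52 and 0.82, against 2.61, 2.03 and 1.03 for the 18 of beta-oxidation. Citrate synthase (Cs), which lets acetyl-CoA into the cycle, stood at 7.84, 7.35 and 8.17 in brown adipocytes, against 5.47, 6.15 and 5.53 in brown SVF (difference 2.07, SE 0.29). It differed by 1.72 in inguinal and 0.70 in epididymal fat (adjusted p = 0.0937 by limma, not called).

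The isocitrate dehydrogenases diverged. Idh3a, the catalytic subunit of the NAD-dependent enzyme, stood at 5.95, 5.36 and 6.17 in brown adipocytes, against 2.42, 3.46 and 3.31 in brown SVF, at 3.90, 4.55 and 5.09 in inguinal adipocytes, against 0.16, 1.47 and 0.81 in inguinal SVF, and at 3.30, 3.36 and 3.69 in epididymal adipocytes, against 1.20, 1.60 and 0.75 in epididymal SVF. No pair overlapped, and the differences of 2.76, 3.70 and 2.27 (6.78-, 13.0- and 4.81-fold, SE 0.40) were each called (limma adjusted p = 0.000341, 0.000156 and 0.00204). Its partner subunits moved less there, Idh3b by 2.07 and 0.53 and Idh3g by 1.68 and 0.95 in inguinal and epididymal fat. Idh2, the NADP-dependent mitochondrial enzyme, was the smallest of the set in inguinal fat apart from Cpt1a. It stood at 3.00, 1.92 and 3.01 in brown adipocytes, against 0.71, 1.27 and 0.66 in brown SVF (difference 1.76, SE 0.37, adjusted p = 0.00328), but at 0.27, 0.46 and 1.45 in inguinal adipocytes, against 0.12, 0.16 and -0.13 in inguinal SVF (difference 0.68, adjusted p = 0.229).

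The oxoglutarate dehydrogenase complex, made of Ogdh, Dlst and Dld, had differences of 2.32, 2.28 and 2.03 in brown and 1.52, 1.27 and 1.52 in inguinal fat, all called. In epididymal fat only Dld, the subunit shared with other dehydrogenase complexes, was called among them, at 0.83 (adjusted p = 0.0495 by limma), a call lost in 6 of 6 omissions of an array (0.63 to 0.93).

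Succinyl-CoA ligase pairs the shared subunit Suclg1 with either Sucla2, the ATP type, or Suclg2, the GTP type of the beta subunit. Sucla2 stood at 7.18, 6.65 and 7.51 in brown adipocytes, against 3.91, 4.69 and 4.30 in brown SVF (7.02-fold, difference 2.81, SE 0.31, limma adjusted p = 7.9e-05), and differed 4.45-fold in inguinal and 2.04-fold in epididymal fat. Suclg2 stood at 2.09, 1.53 and 2.33 in brown adipocytes, against 0.28, 1.04 and 0.52 in brown SVF (2.58-fold, difference 1.37, SE 0.30, adjusted p = 0.00508), and differed 2.14-fold in inguinal and 1.45-fold in epididymal fat, the last not called. Both subunits were separate between the brown fractions, and Suclg2 was the smallest brown difference apart from Cpt1a. A second kept probe of Suclg2 differed by 1.14, 1.02 and 0.63 in brown, inguinal and epididymal fat. None of these was called (limma adjusted p = 0.185, 0.231 and 0.444 over probes), nor was that probe called between the adipocytes of any depots. The log2 signal of Suclg2 over Sucla2 was -5.13 ± 0.05 in brown adipocytes, against -3.69 ± 0.08 in brown SVF, a difference of -1.45. It was -4.08 ± 0.36 in inguinal adipocytes, against -3.03 ± 0.39 in inguinal SVF (-1.05), and -3.16 ± 0.49 in epididymal adipocytes, against -2.67 ± 0.10 in epididymal SVF (-0.50). The exact permutation p was 0.1 each time, the smallest possible (SD, n = 3). Brown adipocytes lay below the 6 inguinal and epididymal adipocyte arrays (-3.62 ± 0.64) by 1.51 (difference -1.51, exact permutation p = 0.0238, adjusted 0.0952).

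The 4 succinate dehydrogenase subunits, which also form complex II of the respiratory chain, were called in brown (Sdha 2.39, Sdhb 2.63, Sdhc 1.89, Sdhd 2.38) and in inguinal fat (1.56, 2.22, 1.19 and 1.34 in the same order), and Sdha and Sdhd in epididymal fat (1.00 and 0.91). Fumarase (Fh1) and malate dehydrogenase (Mdh2), which close the cycle, differed by 2.51 and 2.06 in brown, 1.40 and 1.25 in inguinal, and 0.91 and 0.65 in epididymal fat, the last pair not called.

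The brown fraction difference was also found within each slide that held both groups. On slide 6, with 2 arrays a group, the median enzyme differed by 2.26 and 34 of 35 were above 0. On slide 8, with 1 array a group, it differed by 2.97 and 33 of 34 were above 0. The exception was Cpt1a, at -0.94 and -1.01. For inguinal and epididymal fat no slide held both fractions. A further 16 probes of these genes passed the filter. They had the sign of the probe used in 16 of 16 cases in brown, in 13 in inguinal fat (not Dlst, Hadha and Sdha) and in 14 in epididymal fat (not Dlst and Sdha). In brown fat 1 other probe each of Cpt1a (-0.65), Dld (1.55), Dlst (1.06), Sdha (0.59) and Suclg2 (1.14) was not called. Their limma adjusted p over probes ran from 0.0722 to 0.35. Of 2 other Sdha probes, 1 differed by 2.06, 1.85 and 0.90 in brown, inguinal and epididymal fat, the last not called (limma adjusted p = 0.0964 over probes). The other, which the array lists under an older clone name, differed by 0.59, -0.14 and -1.20, the last past the threshold against the probe used (limma adjusted p = 0.0385 over probes). Between brown and inguinal adipocytes, 14 of the 16 had the sign of the probe used, the exceptions being 1 probe each of Cpt1a (0.04) and Dld (-0.06).

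The test of the difference between depots asked whether the fraction difference itself differed. Between brown and epididymal fat 4 enzymes passed, all larger in brown, where 2.02% of genes passed, 0.536% as higher and 1.48% as lower: Acaa2 by 2.85 (SE 0.48, limma adjusted p = 0.00811), Etfdh by 2.24 (SE 0.43, adjusted p = 0.0142), Suclg1 by 2.30 (SE 0.54, adjusted p = 0.0432) and Sucla2 by 1.78 (SE 0.43, adjusted p = 0.0478). The medians were 1.47 for the enzymes and 0.00 for all genes, and 25 enzymes had an unadjusted p under 0.05. The smallest were Cpt1a at 0.05, Idh3a at 0.49 and Echs1 at 0.72. Between brown and inguinal fat 0 enzymes passed in limma (0.864% of genes, 0.135% higher and 0.729% lower; 5 enzymes at an unadjusted p under 0.05), with Acaa2 largest at 1.80 (adjusted p = 0.103) and Idh3a lowest at -0.94. Between inguinal and epididymal fat 0 passed (0.0781% of genes, 0.0156% higher and 0.0624% lower; 12 enzymes at an unadjusted p under 0.05), with Cpt1b largest at 1.95 (SE 1.03). Acaa2 and Etfdh kept their calls in each of 12 omissions of an array. Sucla2 lost its call in 9 of them (1.58 to 1.92 where lost) and Suclg1 in 10 (1.97 to 2.43). With normexp, an alternative background correction given below, Etfdh, Sucla2 and Suclg1 lost this call. A second kept probe of Etfdh had fraction differences of 2.15 in brown and 0.54 in epididymal fat.

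Adipocytes were then compared across depots. Between brown and inguinal adipocytes 31 enzymes were called higher in brown and 0 lower, where 12.2% of genes were called, 6.37% higher and 5.83% lower, with medians of 1.71 for the enzymes and 0.15 for all genes. Those not called were Cpt1a (-0.56, SE 0.26, limma adjusted p = 0.168), Cpt2 (0.70, adjusted p = 0.29), Acads (1.08, adjusted p = 0.082) and Echs1 (1.10, adjusted p = 0.091). The largest were Cpt1b at 2.64 (6.23-fold), Acaa2 at 2.57 (5.94-fold, adjusted p = 0.000814) and Suclg1 at 2.30, and the smallest called was Suclg2 at 1.05. Cpt1b lost this call in 4 of 6 omissions of an array (2.35 to 2.58 where lost) and Suclg2 in 4 (0.76 to 1.12). Acaa2 and Suclg1 lost it in 0. Of the 5 macrophage markers 4 were called lower in brown than in inguinal adipocytes (median -3.20) and 4 lower than in epididymal ones (median -3.27), and of the 5 progenitor and fibroblast markers 3 and 4 (medians -2.50 and -2.24). Their part in the differences between adipocytes was not tested. The count depends on single arrays: it was 20 without brown adipocyte replicate 1, 19 without replicate 3, 18 without inguinal adipocyte replicate 1 and 19 without inguinal adipocyte replicate 2.

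Between brown and epididymal adipocytes all 35 passed, 34 higher in brown and Cpt1a lower, where 28.8% of genes were called, 12.3% higher and 16.4% lower, with medians of 2.22 and -0.01. Without epididymal adipocyte replicate 3 the count was 31, with Cpt1a, Echs1, Etfa and Suclg2 not called. The largest were Cpt1b at 4.91 (30.1-fold, SE 0.73, limma adjusted p = 0.00043), Acaa2 at 3.37 (10.3-fold, adjusted p = 4.32e-05) and Suclg1 at 3.17. The smallest were Suclg2 at 1.12 and Etfa at 1.38, and Cpt1a differed by -0.96 (adjusted p = 0.0132). The Cpt1a value was -0.82 without epididymal adipocyte replicate 3 and -0.66 as the mean of its kept probes, neither called, and its second probe had -0.36 (limma adjusted p = 0.422 over probes). Between inguinal and epididymal adipocytes 2 enzymes passed, both higher in inguinal, where 7.64% of genes were called, 0.885% higher and 6.76% lower: Acadvl by 1.49 (SE 0.43, adjusted p = 0.0494) and Idh3b by 1.28 (adjusted p = 0.0394). Acadvl stood at 6.48, 5.94 and 7.75 in inguinal adipocytes, against 5.09, 4.85 and 5.76 in epididymal ones. Idh3b stood at 3.87, 3.70 and 4.76 in inguinal adipocytes, against 2.69, 2.91 and 2.90 in epididymal ones. Both were separate, but Acadvl lost its call in 5 of 6 omissions of an array (0.98 to 1.76) and Idh3b in 4 (0.95 to 1.40). The medians were 0.69 and -0.08, and 16 enzymes had an unadjusted p under 0.05. Cpt1b had a larger difference of 2.27 (limma adjusted p = 0.0682) that was not called, and its arrays overlapped through epididymal adipocyte replicate 3 alone. Without that array it was 3.34 (adjusted p = 0.0192), and the second Cpt1b probe had 2.66 (adjusted p = 0.0458 over probes), both called. Decr1 (-0.18) and Etfa (-0.02) were the lowest apart from Cpt1a (-0.40). The 3 comparisons share arrays pairwise.

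**Figure D4:**
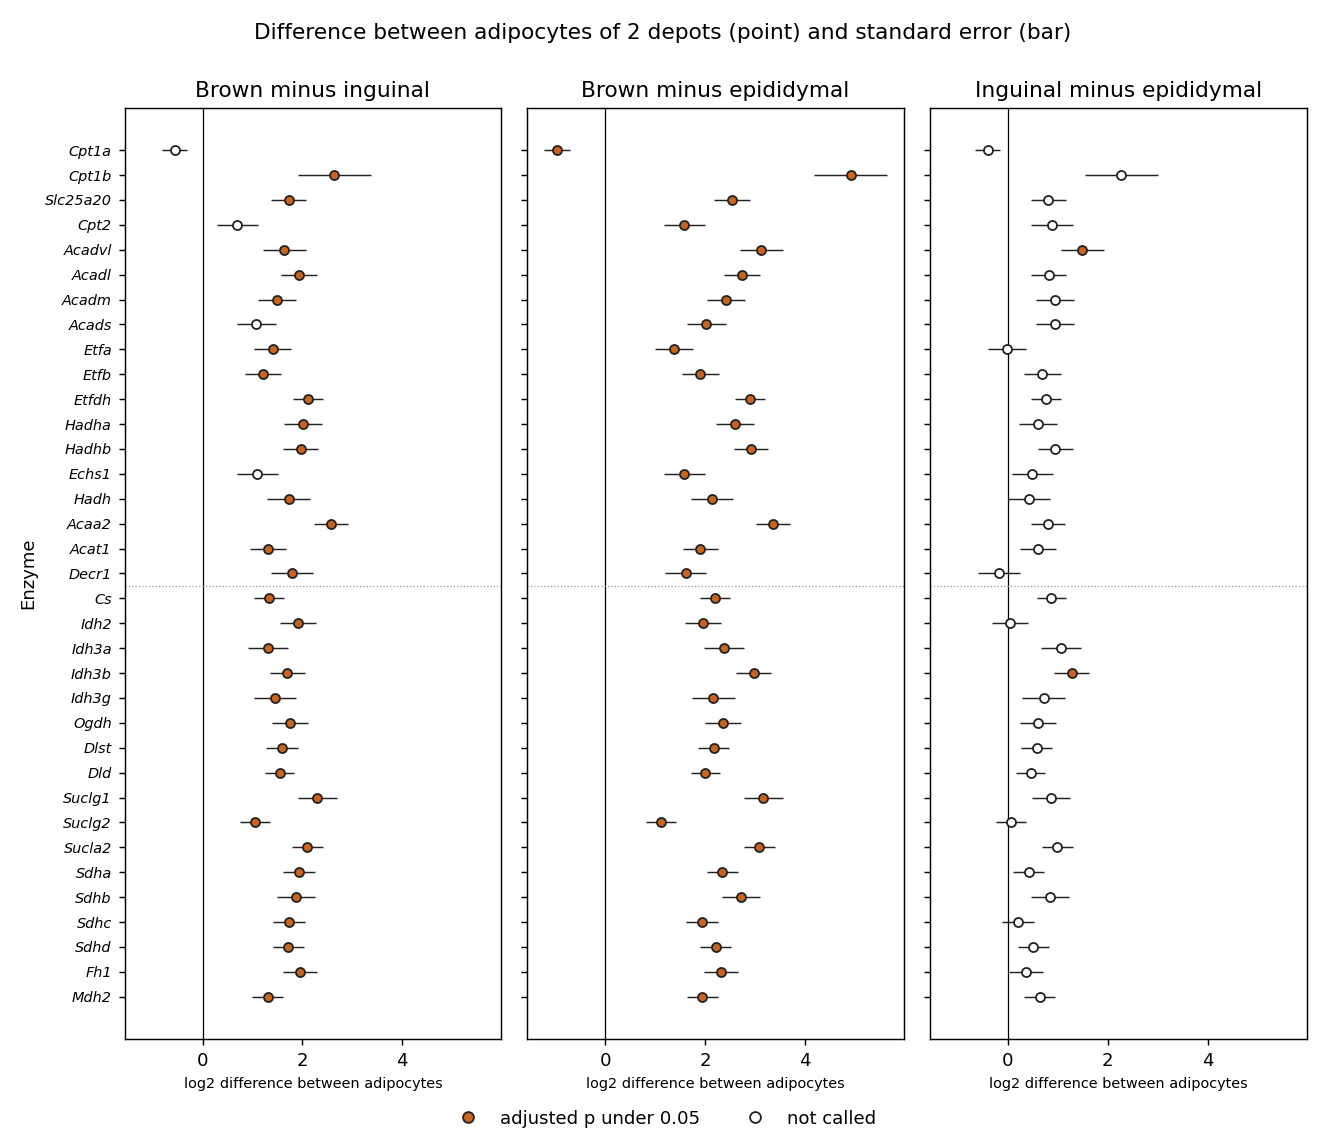
Log2 difference between the adipocytes of pairs of depots for each enzyme, with its standard error; filled points passed an adjusted p of 0.05. Brown minus inguinal and brown minus epididymal differences lie right of 0 except for Cpt1a, and inguinal minus epididymal ones are called for Acadvl and Idh3b.

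Among the SVF groups, brown SVF had the higher levels, with few calls. Against inguinal SVF, Cpt1b (2.98, SE 0.73, limma adjusted p = 0.0439), Idh3a (2.25, adjusted p = 0.00803), Acadm (1.67, adjusted p = 0.0306) and Sucla2 (1.44, adjusted p = 0.022) were higher in brown, 4 of 35 where 2.27% of genes were called, 1.8% higher and 0.474% lower. The medians were 0.99 for the enzymes and 0.02 for all genes, and 28 enzymes had an unadjusted p under 0.05. All brown SVF arrays lay above all inguinal SVF arrays for 28 enzymes, and how often this held over all genes was not counted. The number of enzymes called was 1 without brown SVF replicate 2, brown SVF replicate 3 or inguinal SVF replicate 3. Against epididymal SVF, Cpt1b (3.30), Idh3a (1.88) and Sucla2 (1.31) were higher, 3 of 35 where 1.78% of genes were called, 1.06% higher and 0.723% lower, with medians of 0.75 and -0.01. That count was 0 without brown SVF replicate 2 or 3 or epididymal SVF replicate 1 or 3, and 1 without epididymal SVF replicate 2. Cpt1a had differences of -0.82 and -1.01, not called (adjusted p = 0.11 and 0.0646). Of the 6 brown adipocyte markers 5 were called higher in brown SVF than in either other SVF, and of the 7 mature adipocyte markers 0 were, their sums overlapping as given above. The median mature adipocyte marker was nevertheless higher in brown SVF, by 1.66 against inguinal and 0.92 against epididymal SVF. The 3 erythroid markers summed to 492 to 632 in brown SVF, against 87.2 to 183 in inguinal SVF, where all 3 were called, and 154 to 298 in epididymal SVF, where 0 were. The 8 muscle markers summed to 4.63 to 11.1 in brown SVF, against 0.793 to 0.909 in epididymal SVF, with 1 of 8 called. The part of these cell types in the differences was not tested. Within scan day 6 the median enzyme differed by 0.99 and 0.83 from inguinal and epididymal SVF, and within scan day 7 by 1.12 and 0.63. Between inguinal and epididymal SVF 0 enzymes passed in limma (0.297% of genes, 0.0572% higher and 0.239% lower; 1 enzyme at an unadjusted p under 0.05), with a median of -0.27 for the enzymes and -0.04 for all genes. Decr1 was lowest at -1.06 (adjusted p = 0.472).

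Genes beside the 2 pathways were counted from lists drawn up with results of these data known. Of 18 other genes of fatty acid entry and beta-oxidation tested, 12 were higher and 1 lower in brown adipocytes than in brown SVF, 10 and 1 in inguinal fat, and 6 and 1 in epididymal fat (medians 1.65, 1.48 and 1.06). Of all genes 12.7%, 9.07% and 18% were called higher in these comparisons. Acsl1, which activates long-chain fatty acids, differed by 2.86, 4.81 and 3.11 (all called) and was not called between the adipocytes of any depots. Eci1, which shifts double bonds, differed by 2.90, 2.60 and 1.57 (all called). The gene called lower in each depot was Cpt1c, the brain type of the enzyme (-2.38, -2.03 and -2.20). Of 20 further genes of pyruvate entry and the citrate cycle, 17 were higher and 1 lower in brown, 14 and 1 in inguinal, and 9 and 0 in epididymal fat, beside the same shares of all genes. Pdk4, which turns pyruvate dehydrogenase off, differed by 3.28, 3.78 and 3.12, and Pcx, which makes oxaloacetate from pyruvate, by 2.92, 4.88 and 3.13, all called.

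Of the ketone body genes, Oxct1, which uses ketone bodies, was higher in brown (1.11) and epididymal adipocytes (0.97) than in their SVF, both called. Bdh1, which interconverts the ketone bodies, was called lower in brown adipocytes than in brown SVF, and was not well above background on any brown adipocyte array. Of 13 regulators tested, 4, 4 and 3 were higher in the adipocytes of brown, inguinal and epididymal fat and 0 lower, beside the 12.7%, 9.07% and 18% of all genes called higher. Ppara, the receptor that drives beta-oxidation genes in liver, differed by 3.69, 4.03 and 2.43 and was higher in brown than in inguinal (3.10) and epididymal adipocytes (4.21), all called. Ppargc1a differed by 2.01, 2.25 and 1.07, none of them called, and was called higher in brown than in epididymal adipocytes (3.33, limma adjusted p = 0.0084). Ppargc1b differed by 2.88, 1.87 and 1.81, all called. Esrra, the oestrogen-related receptor alpha, differed by 2.11 in brown (called), 0.81 in inguinal and 0.01 in epididymal fat, and was higher in brown than in inguinal (1.62) and epididymal adipocytes (2.65). Esrrg, the gamma form, differed by 0.89, 1.19 and 1.94, the last called, and was lower in brown than in epididymal adipocytes (-1.70). Sirt3, a mitochondrial deacetylase, differed by 2.05 (called), 0.57 and -0.53.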

How the data were processed

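Trizol RNA was labelled with Cy3 and hybridised to Agilent mouse arrays, per the labels' protocols. The deposited intensity values are background-corrected spot signals of single arrays from Feature Extraction 9.5.3.1 (6 arrays) or 10.5.1.1 (12 arrays), per the file headers. The authors also deposited a log2 table of 31201 probes. How it was scaled and centred is not given in the sources used here. Its column medians ran from 8.86 to 9.01. Each of its 18 columns matched an array of its own group best, but only 4 matched the array with the same replicate number, so it was used by group.

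Here log2 signals were scaled to each array's 75th percentile, spots of a probe were averaged, and flagged spots were left out. A probe was kept if well above background on all arrays of a group (28595 of 41174). The probe with the highest mean stood for a gene. Names came from RefSeq by accession (24375 probes), symbol (6301) or synonym (2426), otherwise from the array (8072). One model of 6 groups was fitted with limma 3.58.1 (R 4.3.3), with Benjamini-Hochberg adjustment over 19217 genes and a threshold of 0.05, after a test on simulated data. Arrays give no counts, so their number limits the precision. Ratios were tested by exact permutation over arrays (scipy 1.17.1). Alternatives were normexp on median signals with an offset of 50 (chosen after seeing the data), quantile normalization, other filters and probe rules, the deposited table, slide, scan day or replicate as a block, and leaving out arrays. Deviations of same-numbered arrays correlated above 0.1 in all 3 pairs only between the epididymal fractions (0.42, 0.48 and 0.14), where the fit with a replicate block called 18 enzymes rather than 14. The members and gene lists were chosen with earlier results of these data known. All 35 members were reported, with the 3 largest and 3 smallest differences, those against the majority, and up to 4 genes of each related list. Some listed genes are not reported here.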

Additional observations from a re-analysis of the deposited data

Results flagged for a closer look

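The adipocyte minus SVF difference was larger in brown than in epididymal fat, by the test of the difference itself (limma, Benjamini-Hochberg over all genes), for 4 of the 35 enzymes and 2 of the related genes. Acaa2 differed by 2.85 on the log2 scale (SE 0.48, adjusted p = 0.00811), Etfdh by 2.24 (SE 0.43, adjusted p = 0.0142), Suclg1 by 2.30 (SE 0.54, adjusted p = 0.0432) and Sucla2 by 1.78 (SE 0.43, adjusted p = 0.0478). Among the regulators, Sirt3 differed by 2.59 (SE 0.50, adjusted p = 0.0148) and Esrra by 2.10 (SE 0.47, adjusted p = 0.0319). With normexp on median signals, Etfdh, Suclg1 and Sucla2 lost their calls. The epididymal adipocyte arrays were read with the older software version, so version and depot cannot be told apart here.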

How the results depend on the processing

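No called enzyme value changed sign under an alternative fit of the probes chosen or their mean: 162 called values were recomputed 2899 times, and 386 of these missed the threshold. Brown fraction calls, 35 here, were 32 to 35 throughout. The counts in this section, and those at an unadjusted p above, are of the enzymes alone. Shares of all genes at these settings are not given, so a change in calls may not be particular to the enzymes. The number of enzymes called was 12 (inguinal fraction), 6 (epididymal fraction), 0 (inguinal minus epididymal adipocytes), 11 (brown minus inguinal SVF), 0 (brown minus epididymal SVF) and 1 (brown minus epididymal interaction) with normexp. With only the arrays of the groups compared it was 3, 24, 16 (brown minus inguinal adipocytes), 0 (inguinal minus epididymal adipocytes), 0 (brown minus inguinal SVF) and 13 (brown minus epididymal interaction). With quantile normalization it was 0 for inguinal minus epididymal adipocytes, 13 for brown minus inguinal SVF and 2 for the interaction. With no filter these were 1, 2 and 2. With probes above background on all arrays the first 2 were 0 and 9. The deposited table gave 15 for brown minus inguinal and 5 for brown minus epididymal SVF, scan day 6 alone 0 and 0, and slide as a fixed block 1 for the latter comparison. With slide as a random block, inguinal minus epididymal adipocytes had 0. With scan day as a random block it had 0, the epididymal fraction 9 and brown minus inguinal SVF 11. A replicate block gave 4 for inguinal minus epididymal adipocytes and 8 for brown minus inguinal SVF, cost Dld its call in the epididymal fraction (17 higher, 1 lower there) and ended no other call of an enzyme. With inguinal SVF 1 and epididymal adipocyte 3 both left out, the epididymal fraction had 7 and inguinal minus epididymal adipocytes 1.

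Ranges of calls cover the omission of each array in turn and that of inguinal SVF 1 and epididymal adipocyte 3 together. Calls were 22 to 33 in the inguinal fraction and 6 to 11 in the epididymal fraction. Between adipocytes they were 18 to 34 for brown minus inguinal, 31 to 35 for brown minus epididymal and 0 to 3 for inguinal minus epididymal. For brown minus inguinal and epididymal SVF they were 1 to 6 and 0 to 3. For the brown interactions with inguinal and epididymal fat they were 0 to 1 and 2 to 7. Ratio differences of brown against the other adipocytes, with each array left out in turn, were 4.02 to 5.09 (Cpt1b over Cpt1a) and -1.65 to -1.35 (Suclg2 over Sucla2). With 2 brown arrays the smallest exact permutation p is 0.0714.

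On another kept probe, 5 called values turned sign: Sdha in the epididymal fraction (-1.20), Sdha (-0.14), Dlst (-0.36) and Hadha (-0.62) in the inguinal fraction, and Dld in brown minus inguinal adipocytes (-0.06). In the alternative fits, signs that turned belong to uncalled values. Acaa2 in the epididymal fraction was -0.14 (quantile), -0.12 (deposited table) and -0.10 to 0.20 without an array in turn. Decr1 in inguinal minus epididymal adipocytes was 0.33 (normexp) and -0.43 to 0.23 without an array in turn, and Etfa -0.39 to 0.32. Between inguinal and epididymal SVF, normexp gave Decr1 0.42, Dlst -0.30 and Sdhd -0.33. In the brown minus inguinal interaction Cpt1b was 0.86 (normexp) and -0.83 to 0.23 without an array in turn, and Acadm -0.44 to 0.23. In the brown minus epididymal interaction Cpt1a was -0.063 (quantile), -0.067 (deposited table) and -0.17 to 0.20 without an array in turn, and Idh3a -0.11 (quantile) and -0.057 (deposited table). Etfa in the inguinal minus epididymal interaction was -0.065 to 0.67 without an array in turn. Causes were not tested. Normexp on mean signals was not run.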
